A study of Mus musculus with 9 samples.

Results

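The group described here is a set of 10 C-type lectin receptor genes of myeloid cells, namely Clec7a, Clec4n, Clec4e, Clec4d, Clec5a, Clec4a2, Clec12a, Clec10a, Mgl2 and Cd209a. They were taken from the deposited table by gene symbol, and each matched 1 row, so all 10 were found among 45535 rows that carry a symbol. The series measured RNA of CD103+ dendritic cells (CD103 is an integrin encoded by Itgae) from lungs of mice of the C57BL/6J strain, labelled C57/BL6j, and all mice had been given bleomycin, which injures the lung and leads to fibrosis, 7 days of treatment in all groups. Lungs were dissociated with collagenase and the cells were selected on magnetic beads; RNA came either straight from the selected cells (before culture, 5 samples) or from cells cultured for 18 h (after culture, 4 samples; RPMI with 10% serum and 1% penicillin and streptomycin). No untreated lung is used here, and whether mice were pooled in a sample is not stated, so p-values measure the spread between these samples, which may be technical.

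C-type lectin receptors are membrane proteins with a fold that binds sugars and, in some members, lipids, proteins or crystals. In myeloid cells, activating members signal through the kinase Syk, either by a motif of their own or by an adaptor that carries an immunoreceptor tyrosine-based activation motif (ITAM), and pass the signal to the scaffold CARD9 and to NF-kB. Inhibitory members carry an ITIM, the inhibitory counterpart, which recruits phosphatases. Endocytic members take glycoproteins into the cell, and in dendritic cells several of them serve as markers of subsets.

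The promoter sequences of 6 members are shown. Clec4d and Clec4e start 27.8 kb apart, and Clec7a and Clec12a 130.1 kb apart, yet the genes of each pair changed unequally. Mgl2 and Cd209a had the largest falls. Each is the stretch of 250 bases just before the RefSeq start, 5′ to 3′ on the strand of the gene, in build GRCm38.p6. Capitals mark matches on either strand to 6 short motifs: GAGGAA (PU.1 and other ETS factors), TGANTCA (AP-1), TTGCNNAA (C/EBP), the NF-kB consensus, CCACCC (KLF and SP factors) and TGACNNNGC (NRF2). The windows are chr6:123261857-123262106 (plus strand) for Clec4d, chr6:123289872-123290121 (minus) for Clec4e, chr6:129472780-129473029 (minus) for Clec7a, chr6:129349994-129350243 (plus) for Clec12a, chr11:70130107-70130356 (plus) for Mgl2 and chr8:3748985-3749234 (minus) for Cd209a.
Clec4d: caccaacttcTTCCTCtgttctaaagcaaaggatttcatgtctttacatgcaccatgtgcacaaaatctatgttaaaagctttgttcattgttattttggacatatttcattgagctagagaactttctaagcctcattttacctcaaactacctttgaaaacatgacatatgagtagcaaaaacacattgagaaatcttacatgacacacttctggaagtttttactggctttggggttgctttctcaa
Clec4e: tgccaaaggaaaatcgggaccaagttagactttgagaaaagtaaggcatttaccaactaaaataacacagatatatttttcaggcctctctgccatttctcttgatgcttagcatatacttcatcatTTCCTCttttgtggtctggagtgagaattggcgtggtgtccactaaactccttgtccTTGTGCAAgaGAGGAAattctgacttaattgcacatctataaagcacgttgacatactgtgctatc
Clec7a: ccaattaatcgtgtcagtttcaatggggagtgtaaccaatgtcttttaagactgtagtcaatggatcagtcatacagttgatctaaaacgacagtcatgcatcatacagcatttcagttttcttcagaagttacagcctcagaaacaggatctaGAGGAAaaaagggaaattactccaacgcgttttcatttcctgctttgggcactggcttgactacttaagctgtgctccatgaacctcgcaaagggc
Clec12a: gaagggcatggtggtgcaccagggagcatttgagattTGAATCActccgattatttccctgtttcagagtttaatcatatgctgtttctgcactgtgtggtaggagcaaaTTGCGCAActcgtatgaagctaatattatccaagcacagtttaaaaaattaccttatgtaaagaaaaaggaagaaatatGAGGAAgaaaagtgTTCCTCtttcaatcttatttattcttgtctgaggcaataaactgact
Mgl2: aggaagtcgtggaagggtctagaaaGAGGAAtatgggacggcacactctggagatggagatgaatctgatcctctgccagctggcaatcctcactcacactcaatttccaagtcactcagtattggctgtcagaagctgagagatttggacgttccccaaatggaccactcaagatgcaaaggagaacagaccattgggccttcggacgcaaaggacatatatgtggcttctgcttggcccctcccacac
Cd209a: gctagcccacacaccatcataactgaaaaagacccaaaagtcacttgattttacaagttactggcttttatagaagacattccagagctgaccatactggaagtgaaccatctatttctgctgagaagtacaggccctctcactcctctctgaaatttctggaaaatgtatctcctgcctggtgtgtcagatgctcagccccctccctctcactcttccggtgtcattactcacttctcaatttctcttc

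Of the members, 8 have such a sequence in the RefSeq table. GAGGAA was found in 6 of these 8, namely Clec7a, Clec4e, Clec4d, Clec5a, Clec12a and Mgl2, against 23.3% of 32851 promoter windows of the same length. The Clec7a match begins 96 bases before the start, and Clec12a has a pair of matches at 61 and 47 bases. In Clec4e a GAGGAA match at 56 bases lies next to a C/EBP match at 66 bases, and Clec12a has the other C/EBP match (9.56% of all windows). Clec12a also has the only match to the AP-1 letters TGANTCA (6.75% of all windows). It reads TGAATCA, with A at the position where any base was allowed. The NF-kB, KLF and NRF2 letters were in none of the 8 windows, against 4.11%, 28.1% and 10.2% of all windows. A match describes letters only, and genes that rose (Clec7a, Clec4d) and genes that fell (Clec12a, Mgl2) both had GAGGAA. The RefSeq start lies inside the GENCODE gene, which has an earlier start, by 7553 bases for Clec12a and by 16262 bases for Clec4a2, 1 of the 2 members without GAGGAA.

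The question the series poses is how 18 h of culture changes these cells. With a limma fit across all 18202 genes tested, 4 members rose (Clec7a, Clec4n, Clec4d and Clec4a2), 4 fell (Clec12a, Clec10a, Mgl2 and Cd209a), and 2 did not pass an adjusted p of 0.05 (Clec4e and Clec5a). Of all genes tested, 68.8% passed that threshold, 34.2% as higher and 34.6% as lower, so a share of 8 in 10 is near the background and only the directions and sizes of single members are described below. The median log2 fold change was 0.26 over the members and 0.0065 over all genes. The groups did not overlap for 8 members, 4 higher and 4 lower, beside 57.3% of all genes tested (28.7% higher and 28.6% lower). Values are normalized read counts. A log2 fold change is a difference of means of log2(value + 1), which understates changes of low genes, and a fold is the ratio of the group means. In bulk RNA, a smaller number of cells that carry a transcript and less of it per cell cannot be told apart.

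**Figure D1:**
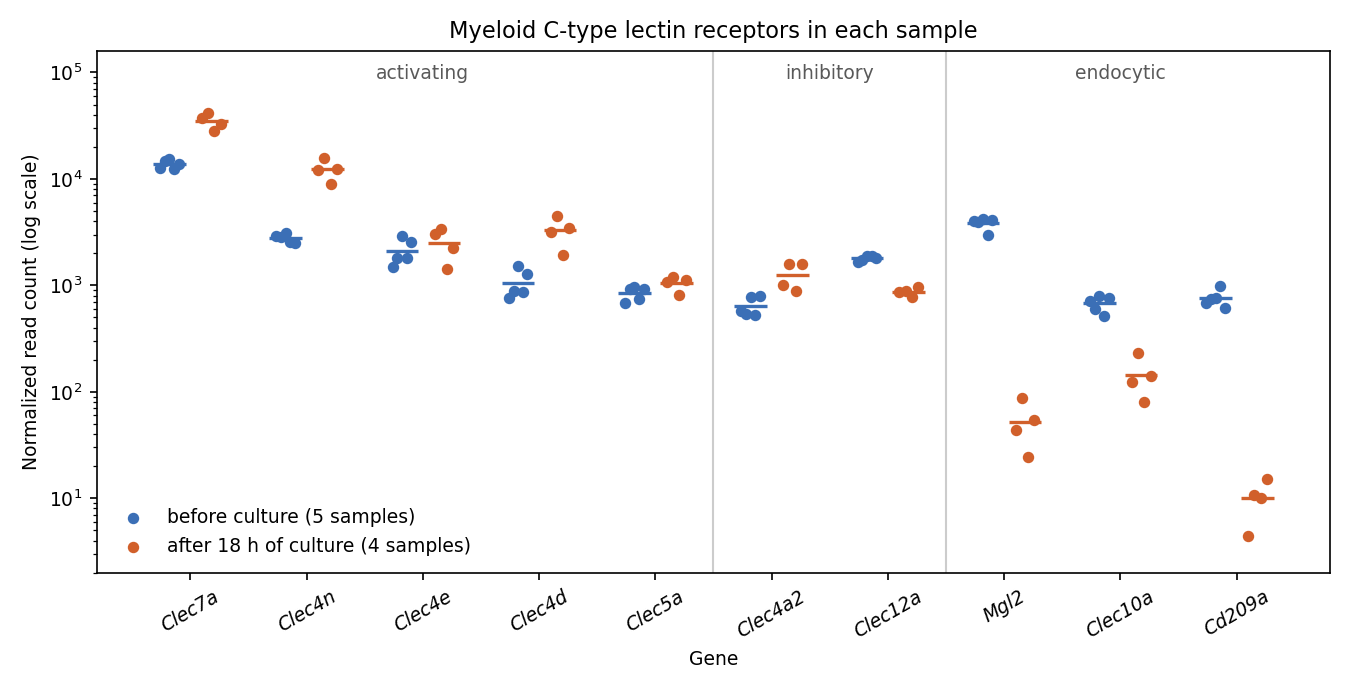
Normalized read count (log axis) of each of the 10 genes in every sample, with 5 points before culture (blue), 4 points after 18 h of culture (orange) and bars at the group means. The endocytic receptors sit far lower after culture, with Mgl2 falling from between 2989 and 4234 to between 24.6 and 86.4, while Clec7a, Clec4n and Clec4d sit higher.

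The samples held between 14.7 and 35.3 M reads in rows with a symbol, and 1 read corresponded to 0.758 to 1.79 normalized counts. Every member had at least 5 reads in every sample, above the floor of 3 reads. Itgae, the gene of the selection marker CD103, had normalized counts of 15948 to 20174 before and 1281 to 2034 after culture. The transcript of the marker was thus far lower after culture, while these RNA data do not show the level of the CD103 protein. On a list of 10 marker genes of type 1 conventional dendritic cells, the usual CD103+ cells of lung, 9 were lower and 1 higher after culture, and their summed normalized count went from 134113 to 161997 before to 18557 to 20509 after culture. Markers of other myeloid cells were also read: the sum over 10 interstitial macrophage genes was 28054 to 72340 before and 28322 to 62821 after culture, with 3 genes higher and 4 lower. The sum over 10 alveolar macrophage genes was higher in every cultured sample, 8715 to 11167 before and 17932 to 24818 after culture. Of these genes, 3 were higher (Fabp4, Fabp5 and Atp6v0d2) and 5 lower, with a median log2 fold change of −0.47 and a lowest of −5.96. The sum thus moved in the same direction as Clec7a, Clec4n, Clec4d and Clec4a2, while more of its genes were called lower than higher. The sum over 10 monocyte genes was 56986 to 73496 before and 23781 to 36476 after culture, with 0 higher and 6 lower. Of 10 tested neutrophil genes, 9 were lower and 1, Mmp8, was higher, and the neutrophil marker Ly6g was listed at 0 in all 4 samples after culture. Of 9 cDC2 genes (type 2 conventional dendritic cells), chosen without members of the set, 4 were higher and 3 lower. Their median log2 fold change was 0.29 and the lowest −4.26. Their sum was 42582 to 64241 before and 33960 to 46932 after culture, with overlapping ranges. All 10 genes of mature dendritic cells were higher (summed level 48502 to 52517 before and 237687 to 266476 after culture). The part of such cells in the results below was not tested.

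Replicate 3 after culture had the lowest level of 9 of the 10 members among the samples after culture. It also had the lowest summed level in its group on 6 marker lists, namely interstitial macrophage (28322), alveolar macrophage (17932), monocyte (23781), neutrophil (7052), cDC1 (18557) and cDC2 (33960). It had the highest on the other three, mature dendritic cell (266476), B cell (8330) and T cell (6281). Without this sample the 8 calls stood, with log2 fold changes of 1.43 for Clec7a, 2.27 for Clec4n, 1.85 for Clec4d, 1.11 for Clec4a2, −0.99 for Clec12a, −2.06 for Clec10a, −6.00 for Mgl2 and −6.21 for Cd209a. The remaining 2 members moved past the threshold, as given with each below.

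Among the activating receptors, Clec7a (ENSMUSG00000079293, chr6:129461591-129472779) encodes Dectin-1, the receptor for fungal beta-glucans, which has an activating motif in its own tail. Its normalized counts were 12648, 14789, 15531, 12390.0 and 13795 in replicates 1 to 5 before culture, and 37698, 41873, 28072 and 32449 in replicates 1 to 4 after culture. Every sample after culture was above every sample before. The mean went from 13830.5 ± 1349 (SD, n = 5) to 35023 ± 6028 (SD, n = 4), a 2.53-fold rise (log2 fold change 1.33, SE 0.117, limma adjusted p = 2.95e-07).

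Clec4n (ENSMUSG00000023349, chr6:123229843-123247021) encodes Dectin-2, which binds mannose-rich glycans and signals through the adaptor FcR gamma chain. It had the largest rise of the set. Its normalized counts were 2899, 2866, 3072, 2534 and 2519 before culture and 12133, 15642, 8942 and 12460.3 after culture, with no overlap. The mean was 4.43-fold higher after culture (2778 ± 243 against 12294 ± 2739, SD; log2 fold change 2.12, SE 0.129, limma adjusted p = 7.81e-09), and it ranked as number 621 from the highest log2 fold change of the 18202 genes tested.

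Clec4d (ENSMUSG00000030144, chr6:123262111-123275265) and Clec4e (ENSMUSG00000030142, chr6:123281789-123289870) encode MCL and Mincle, which can pair with each other on the cell surface and both recognise the mycobacterial glycolipid trehalose dimycolate. Clec4d read 757, 884, 1510.1, 860.4 and 1266 before culture and 3204, 4519, 1929 and 3461 after culture, so the groups were apart. It rose 3.11-fold (1055 ± 319 against 3278 ± 1064, SD; log2 fold change 1.62, SE 0.234, limma adjusted p = 3.50e-05). Clec4e read 1485, 1807, 2920.3, 1795 and 2559.7 before culture and 3024, 3387, 1416 and 2263 after culture, and the lowest of all 9 values was in a cultured sample. Its means were 2113 ± 600.0 and 2522 ± 874 (SD), with a log2 fold change of 0.22, a 95% interval from −0.29 to 0.74 and a limma adjusted p of 0.422. Clec4e passed the threshold in 1 of the 9 fits that left out 1 sample, without replicate 3 after culture (log2 fold change 0.48, limma adjusted p = 0.0460), in a range of adjusted p from 0.0460 to 0.841.

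Clec4d and Clec4e varied together among replicates while their ratio changed between the groups. Both were highest before culture in replicate 3, then in replicate 5, and both were lowest after culture in replicate 3. These extremes are not particular to the pair. Replicate 3 before culture was also the highest for Clec7a, Clec4n, Clec5a, Clec12a, Clec10a and Mgl2, and replicate 3 after culture was the lowest for 9 of the members. Their spread between samples before culture was 30.2% and 28.4% of the mean (coefficient of variation), against 9.76% for Clec7a and 8.74% for Clec4n. The log2 ratio of Clec4e to Clec4d within a sample was 0.97, 1.03, 0.95, 1.06 and 1.02 before culture and −0.083, −0.42, −0.45 and −0.61 after culture. These are ratios of counts, and the merged exons of Clec4e are longer (4.965 kb against 1.599 kb). Per kb, Clec4e was below Clec4d in every sample of both groups, with log2 ratios from −0.68 to −0.57 before and from −2.25 to −1.72 after culture, so the order of the genes did not reverse and the gap widened. The difference in the ratio was −1.40 (1.01 ± 0.0444 against −0.39 ± 0.222, SD; p = 0.0159 in an exact two-sided permutation test and 0.0159 after adjustment over the 4 pairs compared, the lowest that groups of 5 and 4 allow). All 4 pairs were chosen with earlier results of these data known, and the adjustment does not account for that choice.

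Clec5a (ENSMUSG00000029915, chr6:40574894-40585821) encodes MDL-1, which signals through the adaptors DAP12 and DAP10 and lies apart from the other lectin genes. Its normalized counts were 689, 932, 967, 749 and 931 before culture and 1069, 1208, 813 and 1132 after culture. Replicate 3 after culture fell inside the range before culture and the other three were above it. The log2 fold change was 0.30 (SE 0.131, limma adjusted p = 0.0540; means 854 ± 125 and 1055 ± 172, SD). This gene stood at the threshold: on recovered whole reads it passed with edgeR's quasi-likelihood test (adjusted p = 0.0467) and DESeq2 (0.0408), and with limma it passed without replicate 3 after culture (0.00597) or without replicate 3 before culture (0.0391), in a range from 0.00495 to 0.149 over all alternatives.

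The inhibitory receptors moved in opposite directions. Clec4a2 (ENSMUSG00000030148, chr6:123106428-123143999) encodes DCIR, an ITIM receptor of dendritic cells and macrophages. Its normalized counts were 572, 539.5, 769.6, 526 and 795 before culture and 1017, 1585, 875 and 1569.9 after culture, all of the latter above the former. It rose 1.97-fold (640.4 ± 131 against 1262 ± 369, SD; log2 fold change 0.95, SE 0.187, limma adjusted p = 5.06e-04). Of all stretches of 50 bases in the longest Clec4a2 transcript, 8.92% also occur in other genes, chiefly Clec4a4. The span of Clec4a2 overlaps the annotated gene Gm44132 as well, so a part of its reads may be assigned differently.

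Clec12a (ENSMUSG00000053063, chr6:129342691-129365303) encodes MICL, an ITIM receptor that senses uric acid crystals of dead cells. Its normalized counts were 1666, 1735, 1890.4, 1889.9 and 1824 before culture and 870.1, 883, 773 and 973 after culture. Its samples lay closest together of all members, with a coefficient of variation of 5.48% before and 9.34% after culture. The groups did not overlap, and the level was 2.06-fold lower after culture (1801 ± 98.7 against 875 ± 81.7, SD; log2 fold change −1.04, SE 0.080, limma adjusted p = 7.84e-08).

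All 3 endocytic receptors fell. Mgl2 (ENSMUSG00000040950, chr11:70130329-70137550) encodes MGL2, or CD301b, a receptor for galactose and N-acetylgalactosamine and a marker of a subset of type 2 conventional dendritic cells. Its normalized counts were 4060.0, 3894, 4234, 2989 and 4106 before culture and 43.3, 86.4, 24.6 and 54.0 after culture. That is a 74.1-fold lower mean (3857 ± 500.1 against 52.1 ± 25.9, SD; log2 fold change −6.31, SE 0.258, limma adjusted p = 1.70e-10). Among the 18202 genes tested, it ranked as number 24 from the most negative log2 fold change.

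Clec10a (ENSMUSG00000000318, chr11:70156197-70170834), which encodes the close relative MGL1 and starts 25.9 kb from Mgl2, fell less. It read 718, 600.2, 797, 516 and 755 before culture and 124, 232, 80.1 and 141 after culture, with no overlap. The mean was 4.69-fold lower (677 ± 116 against 144 ± 63.9, SD; log2 fold change −2.31, SE 0.237, limma adjusted p = 1.44e-06). The log2 ratio of Clec10a to Mgl2 was −2.50, −2.70, −2.41, −2.53 and −2.44 before and 1.49, 1.41, 1.66 and 1.37 after culture, a difference of 4.00 (exact two-sided permutation test, p = 0.0159, adjusted over 4 pairs 0.0159). Before culture Clec10a was at most 797 beside at least 2989 for Mgl2, and after culture at least 80.1 beside at most 86.4. The full separation of this ratio was thus fixed in advance, and its test adds no support beyond the single genes. Per kb of merged exons the log2 ratio was −3.17 to −2.88 before and 0.90 to 1.20 after culture, so Mgl2 was above Clec10a in every sample before culture and below it in every sample after. The genes are alike in sequence: 16.5% of such stretches in the longest Mgl2 transcript and 10.6% in that of Clec10a are shared, chiefly with each other, so low values of either after culture are uncertain.

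Cd209a (ENSMUSG00000031494, chr8:3743397-3748984) encodes a mouse relative of human DC-SIGN, a receptor for mannose and fucose on dendritic cells. It read 679, 744, 761, 983 and 607 before culture, and 4.42, 10.6, 10.0 and 15.2 after culture, where the values rest on 5 to 20 reads. The mean was 75.0-fold lower (755 ± 141 against 10.1 ± 4.42, SD; log2 fold change −6.18, SE 0.263, limma adjusted p = 2.45e-10). No stretch of its transcript is shared with another gene. Unlike Mgl2 and Clec10a, its highest value after culture was in replicate 4 and its lowest in replicate 1.

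**Figure D2:**
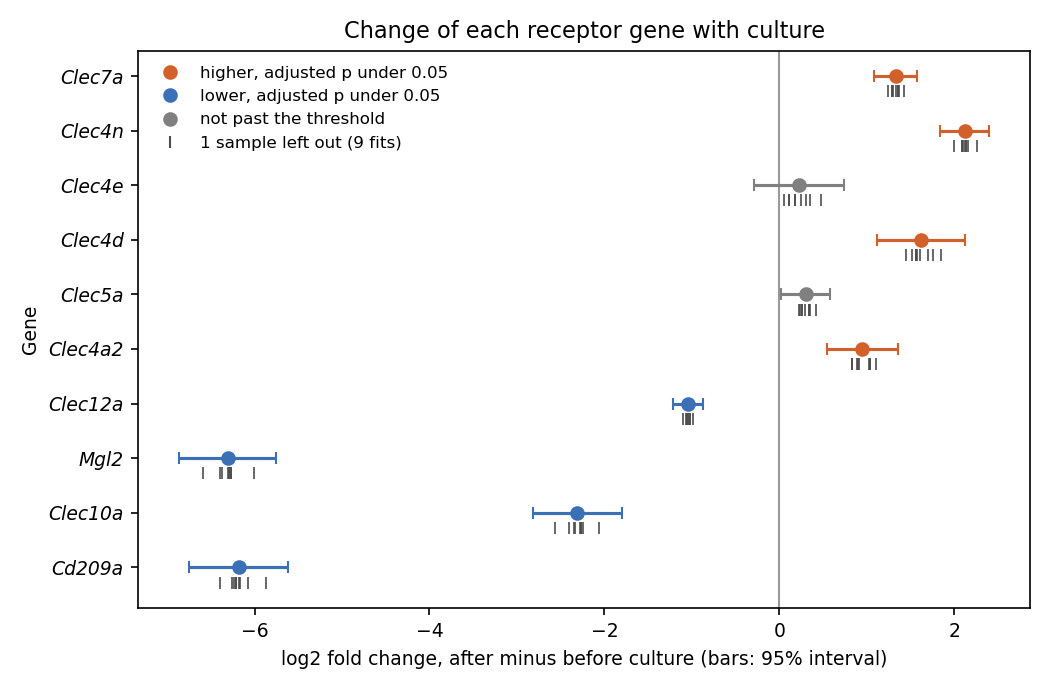
log2 fold change of each gene after against before culture with its unadjusted 95% interval (points and bars), and the same value in each of 9 fits that left out 1 sample (ticks). Mgl2 at −6.31 and Cd209a at −6.18 lie far from the other falls, and the Clec4e interval, from −0.29 to 0.74, spans 0.

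Summed by role, the activating receptors made up 72.7 ± 1.38% of the normalized counts of the set before culture (SD, n = 5) and 95.8 ± 0.653% in the cultured samples (n = 4). The share of the endocytic receptors was 18.7 ± 1.27% before and 0.354 ± 0.0951% after culture. The share of the inhibitory receptors was 8.64 ± 0.659% before and 3.81 ± 0.628% after culture. These are shares of counts, in which longer transcripts weigh more, and they follow from the single genes above.

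To order the levels of the genes, each normalized count was divided by the length of the merged exons in GENCODE M21. Per kb, the order before culture was Clec7a (5243 ± 512, SD), Clec4n (1956 ± 171), Mgl2 (1842 ± 239), Clec4d (660.0 ± 199.6), Cd209a (477 ± 89.2), Clec4e (426 ± 121), Clec12a (326 ± 17.9), Clec10a (234 ± 40.004), Clec5a (222 ± 32.6) and Clec4a2 (219 ± 44.7). The ranges over samples of Clec4n and Mgl2 overlapped, as did those of each neighbouring pair from Clec4d to Clec12a and from Clec10a to Clec4a2. After culture the order per kb was Clec7a (13276 ± 2285), Clec4n (8658 ± 1929), Clec4d (2050.1 ± 666), Clec4e (508 ± 176), Clec4a2 (431 ± 126), Clec5a (275 ± 44.7), Clec12a (158 ± 14.8), Clec10a (49.8 ± 22.04), Mgl2 (24.9 ± 12.4) and Cd209a (6.36 ± 2.79). There, ranges overlapped between Clec7a and Clec4n, between Clec4e and Clec4a2, between Clec4a2 and Clec5a, and between Clec10a and Mgl2. Mgl2 thus went from the third to the ninth place.

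A pair of further within-sample ratios was compared for genes of the same run on chromosome 6, which have other lectin genes between them. The log2 ratio of Clec7a to Clec12a was 2.94 ± 0.146 (SD, n = 5) before culture and 5.31 ± 0.232 (n = 4) in the cultured samples, a difference of 2.37. The log2 ratio of Clec4n to Clec4a2 was 2.13 ± 0.306 before and 3.30 ± 0.242 after culture (difference 1.17), so Clec4n rose more than Clec4a2. Neither ratio overlapped between the groups, and each gave p = 0.0159 in the exact two-sided permutation test (0.0159 adjusted over 4 pairs). For Clec7a and Clec12a this outcome was fixed in advance, since the groups of each gene were apart in opposite directions. The test of that ratio adds no support beyond the single genes.

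**Figure D3:**
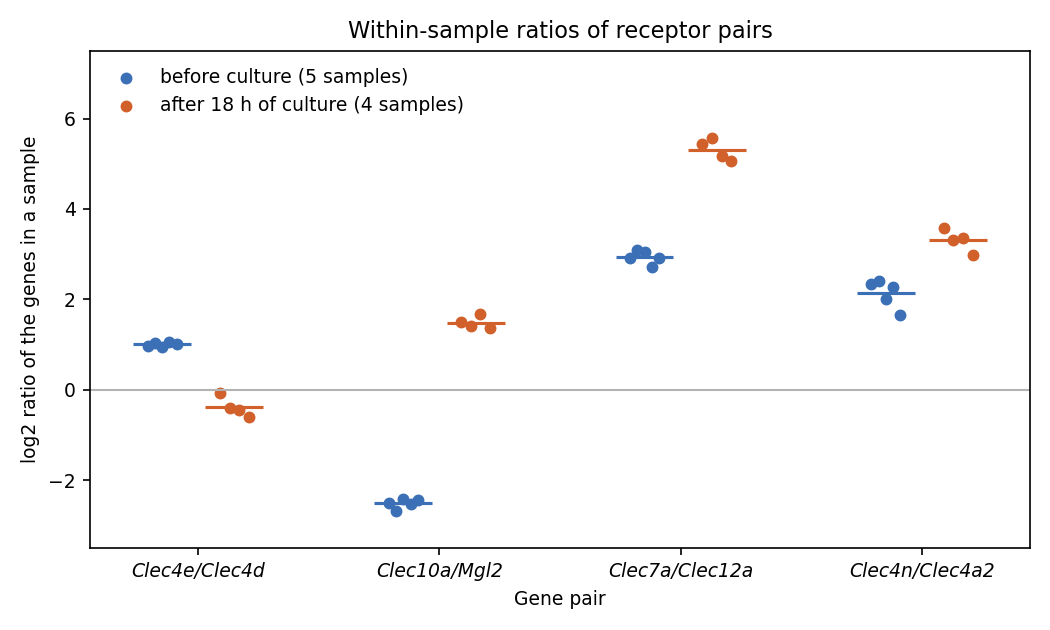
log2 ratio of the genes of each of 4 pairs within each sample, with 5 points before culture (blue), 4 points after culture (orange) and bars at the group means. The ratios are of counts, not per length: the Clec4e/Clec4d ratio falls from between 0.95 and 1.06 to between −0.61 and −0.083 but is below 0 in both groups per kb, while the Clec10a/Mgl2 ratio crosses 0 upward on either scale.

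The next comparison set the members beside other lectin genes on the same chromosome. Clec4a2, Clec4n, Clec4d and Clec4e lie in a run of lectin genes on chromosome 6, with starts 183.4, 60.0 and 27.8 kb from that of Clec4e. Their neighbours Clec4a1 (644.7 ± 67.2 against 1503 ± 558, SD), Clec4a3 (640.1 ± 107 against 1526 ± 355) and Clec4a4 (7.76 ± 4.68 against 52.1 ± 23.4), relatives of DCIR, rose with log2 fold changes of 1.14, 1.24 and 2.70. The rise of Clec4a4 is uncertain, since it was near the floor of 3 reads before culture and shares stretches with Clec4a2. Among the tested genes of this run only Clec4b1 fell (64.6 ± 11.2 against 17.2 ± 6.04, log2 fold change −1.89, limma adjusted p = 1.66e-05). Clec4b2, also in the run, read 6.67 ± 4.46 before and 0.76 ± 1.52 after culture, too low to be tested. Of the 8 tested genes in the run, 6 rose, 1 fell and Clec4e did not pass, beside 34.2% higher and 34.6% lower over all genes tested. The count includes the members Clec4a2, Clec4n, Clec4d and Clec4e described above.

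Around Clec7a the neighbours mostly went the other way. Clec1a, 20.8 kb from Clec7a, was 6.28-fold lower (1085 ± 259 against 173 ± 13.0, SD), and Clec9a, the receptor by which cDC1 sense actin of dead cells, was 8.75-fold lower at 63.9 kb. Clec12b (30.4 ± 15.7 against 5.15 ± 4.07) and the activation marker Cd69 (2447 ± 421 against 297 ± 38.0) fell too. Clec1b (179 ± 35.0 against 300.3 ± 52.7) and Clec2d (2354 ± 230 against 9593 ± 924) rose. Olr1, the lectin-like receptor for oxidised LDL on the other side of Clec7a, read 1896 ± 158 before and 1914 ± 252 after culture (log2 fold change 0.01, limma adjusted p = 0.945).

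Next to Cd209a on chromosome 8, the 4 tested relatives Cd209b, Cd209c, Cd209d and Cd209e were also called lower after culture, from low levels. Cd209c read 112 ± 14.6 before and 5.85 ± 2.998 after culture (SD), and Cd209d 53.9 ± 16.2 and 2.23 ± 2.23. Cd209d, like Cd209b (20.1 ± 8.91 before) and Cd209e (25.9 ± 14.8 before), was near or under the floor of 3 reads after culture, so no fold is given.

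**Figure D4:**
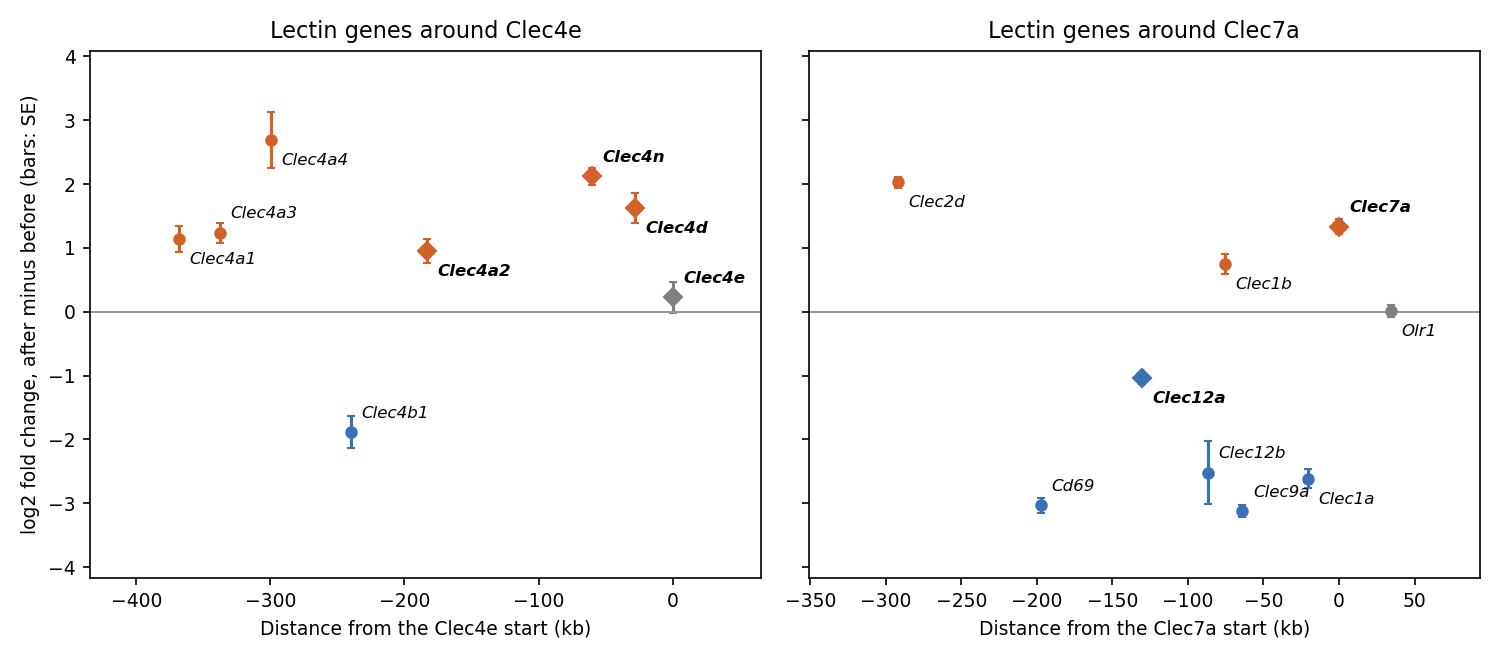
log2 fold change after against before culture (bars are SE) of tested lectin genes plotted by distance in kb from the start of Clec4e (left) and of Clec7a (right), with members of the set as diamonds and colours for higher (orange), lower (blue) and not past the threshold (grey). Rises prevail in the left run and falls in the right one, where Clec7a at 1.33 stands beside Clec1a at −2.62.

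Over the full list of 30 other C-type lectin and lectin-like receptors, 25 were tested, of which 8 rose and 14 fell (median log2 fold change −1.19, beside 0.0065 over all genes and 68.8% called). Ly75, which encodes the endocytic receptor DEC-205 of dendritic cells, rose 5.43-fold (4440 ± 704 against 24100 ± 2717, SD; limma adjusted p = 5.88e-10). The mannose receptor Mrc1 fell 1.42-fold with overlapping groups (6983 ± 772 against 4931 ± 947). Clec14a, an endothelial lectin, was 89.8-fold lower (1236 ± 322 against 13.8 ± 11.2), and Cd207, which encodes langerin, 4.47-fold lower.

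Of the adaptors of the activating receptors, Fcer1g and Tyrobp did not pass the threshold, nor did the kinase gene Syk, while Hcst, which encodes DAP10, fell (219 ± 13.5 against 143 ± 13.3, SD; limma adjusted p = 3.37e-04). Fcer1g, the FcR gamma chain that serves Clec4n, Clec4d and Clec4e, read 5825 ± 634 before and 6711 ± 1874 after culture (SD; log2 fold change 0.17, limma adjusted p = 0.372). Tyrobp, which encodes DAP12, read 8298 ± 817 and 7963 ± 1951 (−0.09, 0.604), and Syk read 10849 ± 1149 and 11519 ± 1783 (0.08, 0.547). Of the 10 adaptors and proximal kinases, 0 rose and 6 fell (median −0.61), among them Fyn, Plcg2, Lyn, Vav1 and Hcst. The share called in either direction was below the 68.8% of all genes, of which 34.2% were higher and 34.6% lower. Without replicate 3 after culture, 1 of the 10 was called higher. The largest of these falls was that of Plcg2, the phospholipase downstream of Syk (7957 ± 879 against 3929 ± 550, SD; log2 fold change −1.02).

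Of the 10 genes of the CARD9 complex and its regulators, 5 rose and 3 fell (median 0.16), a share called near the 68.8% of all genes. Card9 itself was 1.32-fold lower with overlapping groups (990.2 ± 178 against 751 ± 57.7, SD; log2 fold change −0.38, limma adjusted p = 0.0190), and its partner Bcl10 was 1.40-fold lower (1824 ± 88.5 against 1306 ± 111). Malt1, the protease of the complex, read 7471 ± 473 and 7854 ± 533 and did not pass (adjusted p = 0.406). Rubcn, whose product Rubicon restrains CARD9, rose 2.44-fold, and the ubiquitin ligase gene Traf6 1.84-fold. Tnfaip3, which encodes A20, an inhibitor of NF-kB signalling, fell 5.17-fold (32369 ± 1912 against 6264 ± 336).

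Of the 3 phosphatases that ITIM receptors recruit, Inpp5d (SHIP-1) fell 2.20-fold (16340 ± 736 against 7436 ± 1099, SD) and Ptpn11 (SHP-2) 1.34-fold. Ptpn6 (SHP-1) read 5388 ± 610.0 and 4997 ± 567 and did not pass (limma adjusted p = 0.361).

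Genes that Syk and CARD9 signalling is known to induce were mostly lower, with 0 of 14 tested higher and 11 lower (median −1.70), beside 34.2% higher and 34.6% lower over all genes. Egr3, an early-response transcription factor, fell 22.8-fold (2489 ± 380.3 against 109 ± 23.2, SD), and the chemokine gene Cxcl2 had a log2 fold change of −4.35 (14165 ± 3467 against 708 ± 249.8). The inflammasome sensor gene Nlrp3 fell 14.9-fold (9698 ± 975 against 650.2 ± 229) and Il1b 5.88-fold (22902 ± 3456 against 3895 ± 851). Il12b, Csf2 and Csf3 did not pass the threshold. These genes also respond to many other signals.

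**Figure D5:**
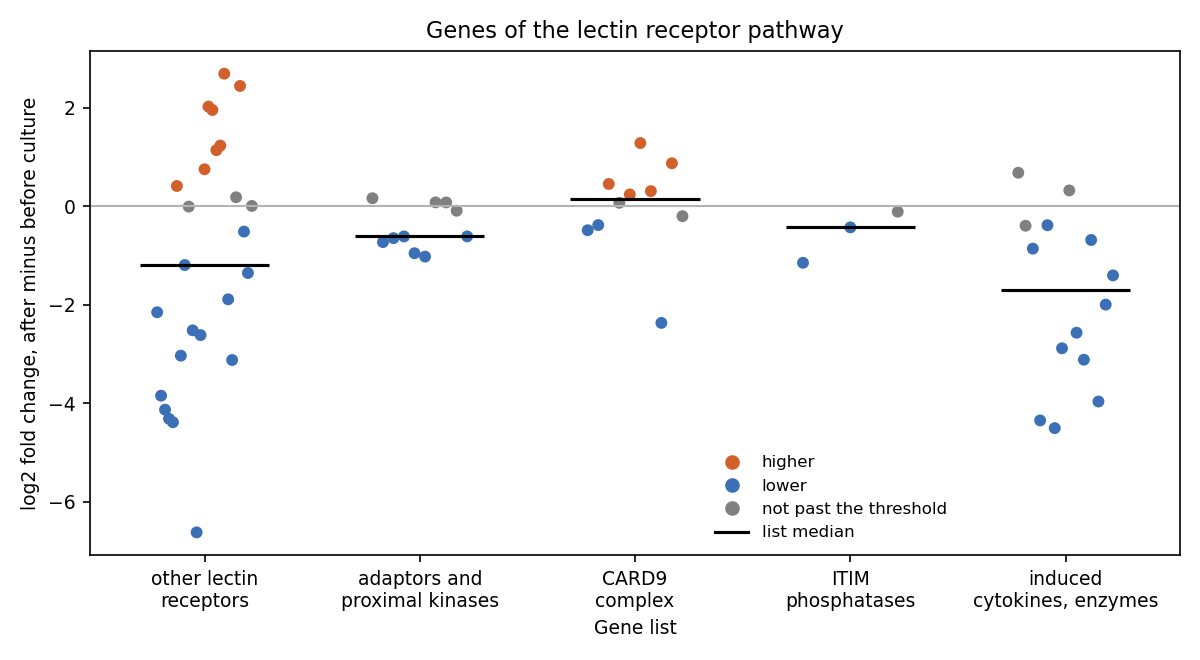
log2 fold change after against before culture of each tested gene on 5 pathway lists, with 1 point per gene, colours for higher (orange), lower (blue) and not past the threshold (grey), and bars at the list medians. The induced genes (median −1.70) and the adaptors and kinases (median −0.61) hold no point past the threshold above 0.

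Likeness of pattern was measured as the root mean square difference of log2(value + 1), centred on each gene's mean, over the 9 samples, among 11776 genes with a mean of at least 100. It is a description, and all samples share the step between groups. Nearest to Clec7a were Pirb, an inhibitory immunoglobulin-like receptor (difference 0.093), and Mfhas1 (0.103), and nearest to Clec4n were Alas1, the first enzyme of heme synthesis (0.127), and Fblim1 (0.135). Clec4d was nearest to Ms4a4a (0.166) and Cd300lb (0.168), and Clec4a2 to the transcription factor gene Zeb2 (0.166) and Fgd4 (0.167). Clec4e was nearest to Il1rn, which encodes the interleukin-1 receptor antagonist (0.156; 4683 ± 1266 against 6285 ± 2446, SD), and Sgms2 (0.181). Clec5a was nearest to Tmem43 (0.089) and Smim13 (0.096).

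Among the members that fell, Clec12a had Cnnm2 among its nearest genes (0.069), and Clec10a was nearest to Olfm1 (0.1804) and Sema6b (0.189). Mgl2 and Cd209a had no gene as close. Nearest to Mgl2 were the early-response genes Fos (0.368; 74479 ± 8647 against 1512 ± 459, SD) and Nr4a1 (0.406), and nearest to Cd209a were Ramp2 (0.299; 1219.8 ± 213 against 21.7 ± 7.13) and Tspan7 (0.315).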

How the data were processed

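RNA of 9 samples was sequenced. The authors deposited normalized read counts, a signal with no value under 0, in a single table. The submitters' processing notes name DESeq2 and GRCm38; aligner, counter, annotation, strandedness and filters are not given in the sources used here. Every value (100%, tolerance 1e-06 of a read) was a whole multiple of 1 step per column, which gave whole reads. The 3782 rows named "none" were left out (6.43 to 10.9% of reads before and 3.87 to 5.46% after culture). Genes averaging 10 or more (18202) were fitted as log2(value + 1) in limma 3.58.1 (R 4.3.3) by group, with a trend in the variance. Tests were two-sided, with Benjamini-Hochberg adjustment across all of these genes. Pair ratios were compared by exact permutation (SciPy 1.17.1). On whole reads, edgeR 4.0.16 called 12562 genes and DESeq2 1.42.0 12663, beside 12524 with limma. Scripts were tested on simulated counts.

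Members, lists and pairs were chosen with earlier results of these data known. The text names all members, up to 4 genes per list by adjusted p, the adaptors of members, neighbouring lectin genes and the 2 genes of nearest pattern, apart from items not reported here. Clec14a, Mrc1, Cd207, Malt1, Hcst, Mmp8, Ly6g, Fabp4, Fabp5, Atp6v0d2 and cytokine genes that did not pass were named after their values were seen. Lengths, positions and shared stretches came from GENCODE M21 (GRCm38), promoters from RefSeq (GRCm38.p6).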

Additional observations from a re-analysis of the deposited data

Results flagged for a closer look

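Of 28 groups of values checked (10 genes and 4 ratios, before and after culture), 1 had a sample that stood apart from the rest of its group by Dixon's ratio at the 95% level, where chance would give about 1.4. Mgl2 read 2989 in replicate 4 before culture, while the other samples before culture read 3894 to 4234. Among the samples before culture, this one had the lowest summed level of the interstitial macrophage (28054), cDC2 (42582), neutrophil (13898) and mature dendritic cell genes (48502) and the highest of the T cell genes (6228). It also had the highest Cd209a (983). Without it the log2 fold change of Mgl2 was −6.40, beside −6.31 with all samples.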

How the results depend on the processing

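Under all 20 alternatives (11 with other settings and 9 that left out 1 sample) the 8 called members stayed called in the same direction. The number of members called higher ran from 4 to 6 and lower stayed at 4. Clec5a moved past the threshold with TMM scaling (adjusted p = 0.0360), upper quartile scaling (0.00873) and quantile normalization (0.0188), where the cause was not tested. Upper quartile scaling shifted the median log2 fold change of all genes by 0.11, and Clec5a then stood at 0.41. Cd209a, at few reads after culture, moved most with the pseudocount, to −5.42 with 8. A minimum mean of 50 left 9 rather than 14 other lectin receptors called lower, with fewer genes tested. The induced genes of Syk and CARD9, like the adaptors and kinases, had 0 or 1 gene called higher.

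The replicate numbers were not taken to pair the samples, since not every correlation was above 0.1. Deviations from group means of same-numbered samples correlated at −0.213 to 0.0807 for title numbers and at 0.0447 to 0.349 for library numbers. Each of the 4 cultured samples correlated best with the sample of its own library number. The labels give these numbers but do not say that a shared number marks shared mice, so a pairing remains possible. The main fit and the permutation tests do not use it. With a replicate block limma called 11656 genes (title numbers) or 12865 (library numbers), against 12524 without; Clec5a passed with library numbers (adjusted p = 0.00495) and not with title numbers (0.0709).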
